A study of Mus musculus with 15 samples.

Results

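The machinery that releases synaptic vesicles was followed through 37 mouse genes, chosen by name and kept where at least 3 of the 15 libraries held at least 10 counts. All 37 listed genes met that rule, among 39179 gene identifiers in the count table, and all 37 were among the 16976 genes tested. Doc2b was the least covered, with at least 10 counts in 11 of the 15 libraries. At a nerve ending, vesicles are filled with transmitter, clustered by synapsins, docked and primed at the active zone by large scaffold proteins, and fused when calcium binds synaptotagmins and the SNARE proteins of vesicle and membrane zip together. NSF and its adaptors then take the SNARE complexes apart, and dynamin, amphiphysin and synaptojanin retrieve the membrane. Sensory neurons of the dorsal root ganglion (DRG) use this machinery to release glutamate and peptides from their terminals in the spinal cord, while the cell bodies, whose messenger RNA was sequenced here, lie in the ganglion.

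The study sequenced lumbar DRG (L4-6) of adult mice, 3 to 6 months old and of a mixed, mostly C57bl6 background, with 1 library per animal. The knockout (KO) mice, Wnt1-Cre; mirflox/flox, lack the miR-183 cluster (miR-183, miR-96, miR-182) wherever Wnt1-Cre was active, which is the neural crest, the source of the sensory neurons and glia of the ganglion. The 4 groups were KO mice after spared nerve injury (KO SNI, 3 animals, replicates 13, 19 and 21), control mice after the same injury (control SNI, 3 animals, replicates 15, 18 and 23), uninjured KO mice (KO naive, 4 animals, replicates 4, 5, 8 and 9) and uninjured control mice (control naive, 5 animals, replicates 1, 2, 3, 6 and 7). In SNI the common peroneal and tibial branches of the sciatic nerve are tied and cut and the sural branch is spared, and L4-6 ganglia are known to supply both the cut and the spared branches. Controls were not of a single genotype, since control SNI replicates 18 and 23 and control naive replicate 7 were wild type (wt) and the other 5 carried Wnt1-Cre without a floxed allele in their labels. The interval between injury and tissue collection is not given in the sources used here.

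Libraries held 5252920 to 10822762 counts, and the 37 genes took 0.967% to 1.24% of them. Control SNI replicate 23 stood apart, with the lowest total and 7.43% of its counts mitochondrial, against 2.26% to 3.60% in the other 14 libraries. The deletion could not be read from the counts, because Mir183, Mir96 and Mir182 had 0, 1 and 2 counts over all libraries. Atf3, a transcription factor of axotomised neurons, was called higher after injury in both genotypes, at 224 ± 44.2 CPM (counts scaled by library size and TMM factors, SD) in KO SNI against 5.6 ± 1.41 in KO naive, and at 150.5 ± 1.95 CPM in control SNI against 7.85 ± 1.5 in control naive. So were the injury genes Sprr1a, Npy, Gal and Ecel1. Their levels differed between the injured groups. Ecel1 was called higher in KO SNI, at 105 ± 17.4 CPM against 31.4 ± 11.4 CPM in control SNI. Atf3 and Sprr1a were higher in KO SNI without overlap but not called, and Npy was lower, at 39.1 ± 9.66 CPM against 57.3 ± 14.4 CPM. Of 9 spinal cord markers, Gad2, Slc6a5, Chat, Mnx1, Olig1 and Olig2 stayed under 1 CPM in every library. The others, Gad1, Aqp4 and Slc1a2, did not, and the 9 summed to 17 to 33.6 CPM per library. The 14 pan-neuronal markers were detected throughout. The injured animals carry lower animal numbers (948 to 976) than the naive ones (1041 to 1082), and KO SNI animals lower numbers (948 to 956) than control SNI animals (974 to 976). Injury and any difference between those number ranges cannot be told apart, nor can knockout within the injured animals.

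To compare genes with each other, CPM values were divided by annotated exon length, the union of the exons of all annotated transcripts. Where the ganglion uses only some of these exons, the level per kb comes out too low. The order of genes per kb therefore depends in part on the annotation. In control naive ganglia the genes spanned more than 3 orders of magnitude per kb. That span rests on Doc2b, and the other genes lay between 4.23 (Rims2) and 313 CPM per kb. The complexin Cplx1, which binds the assembled SNARE complex (chr5:108518554-108550024, GRCm38), stood highest at 313 ± 26.4 CPM per kb (SD, n = 5). Doc2b, a calcium sensor of high affinity (chr11:75768966-75796049), stood lowest at 0.284 ± 0.0459 CPM per kb. Before division by length, Snap25 at 1250 CPM and Syt11 at 1223 CPM stood above Cplx1 at 685 CPM in control naive.

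Among the calcium sensors, Syt11 and Syt4 led at 235 ± 15.8 and 108 ± 8.79 CPM per kb. These atypical synaptotagmins carry a substitution that weakens calcium binding. The classical sensors Syt1, Syt2 and Syt9 lay close together at 31.9 ± 2.1, 36.8 ± 5.3 and 33.6 ± 3.55 CPM per kb, with Syt7, the slow sensor of asynchronous release, at 37.7 ± 4.26 and Syt5 at 29.6 ± 2.17. The spreads of Syt1, Syt2, Syt7 and Syt9 overlapped, so their order is not resolved.

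Of the SNARE group, the membrane SNARE Snap25 was at 184 ± 12.2 CPM per kb and its partner Stx1a, syntaxin 1A, at 15.1 ± 1.14, the lowest level of that role. The vesicle SNARE Vamp2, synaptobrevin 2, was at 81.1 ± 7.77 and its paralog Vamp1 at 54.7 ± 3.54. Before division by length their order was the reverse, with Vamp1 at 556 CPM over 10167 bases and Vamp2 at 309 CPM over 3809 bases. The SNARE-dismantling ATPase Nsf was at 58 ± 4.87, its adaptor Napb at 76.6 ± 4.43, and the complexin Cplx2 at 56 ± 7.01 CPM per kb. Apart from Doc2b, the 5 lowest levels per kb were those of large active zone proteins. The scaffolds Pclo and Bsn were at 6.68 ± 0.863 and 8.68 ± 1.42, the RIM proteins Rims1 and Rims2, which tether calcium channels, at 8.75 ± 0.38 and 4.23 ± 0.207, and the ELKS family member Erc2 at 9.89 ± 0.652 CPM per kb. The priming factor Unc13a was at 13.1 ± 1.82 CPM per kb. The vesicle GTPases of the same role were higher, with Rab3a at 105 ± 7.05 and Rab3c at 33.6 ± 0.942 CPM per kb.

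Among vesicle membrane and clustering genes, synaptophysin, Syp, was highest at 86.2 ± 6.76 CPM per kb and its relative Synpr was at 42.9 ± 3.62. The synapsins Syn1, Syn2 and Syn3, which tie vesicles to each other and to actin, were at 57.2 ± 9.11, 19.5 ± 2.33 and 12 ± 1.56, so that Syn3 was the lowest of the role. The vesicle glycoproteins Sv2b, Sv2c and Sv2a were at 38.7 ± 1.49, 23.1 ± 4.21 and 14.4 ± 0.771 CPM per kb. The glutamate loader Slc17a6 (VGLUT2) was at 47.5 ± 2.68 and Slc17a7 (VGLUT1), which large myelinated afferents are known for, at 24.1 ± 2.75. Of the endocytosis genes, the dynamin Dnm1 was at 66.1 ± 10.2, amphiphysin, Amph, at 42.7 ± 2.88 and the lipid phosphatase Synj1 at 27.1 ± 2.12 CPM per kb.

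**Figure D1:**
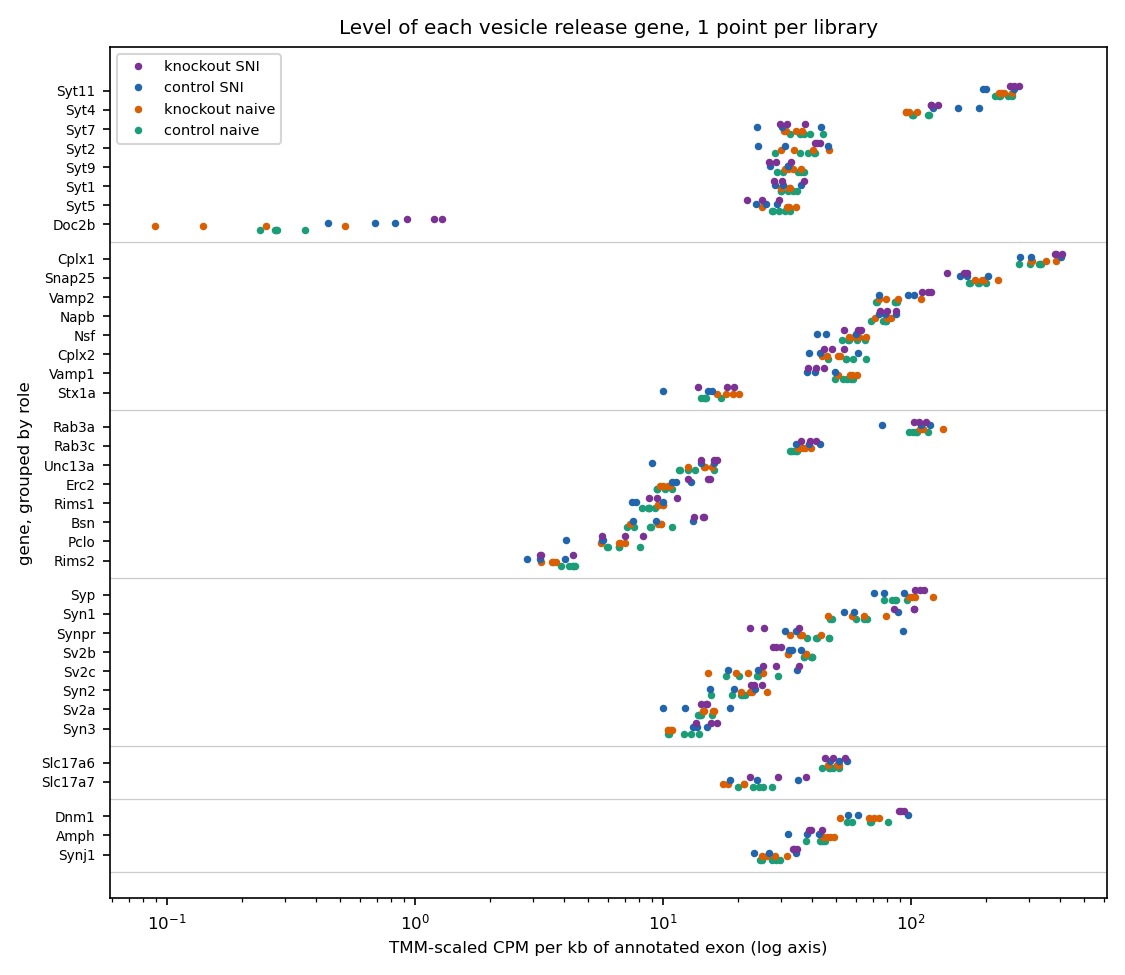
TMM-scaled CPM per kb of exon (log axis) of the 37 vesicle release genes, 1 point per library, with KO SNI (purple), control SNI (blue), KO naive (orange) and control naive (green) libraries, genes grouped by role. Cplx1 was highest and Doc2b lowest, and for most genes the KO SNI and naive points interleave. By TMM scaling the KO SNI points of Doc2b, Erc2, Bsn, Syn1, Dnm1, Synj1, Vamp2 and Syt4 lie to the right of all naive ones. Those of Vamp1, Snap25 and Sv2b lie to the left of all naive ones.

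The first comparison asked which of these transcripts depend on the cluster without injury. A microRNA pairs through its seed, bases 2 to 8, with sites in the 3′ UTR of a messenger and lowers its level or translation, so the mature sequences of the deleted microRNAs are shown with the seed in capitals (5′ to 3′, RefSeq, GRCm38.p6, minus strand of chromosome 6).
mmu-miR-183-5p: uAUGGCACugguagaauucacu
mmu-miR-96-5p: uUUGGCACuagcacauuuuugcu
mmu-miR-182-5p: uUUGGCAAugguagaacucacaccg

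The seeds of miR-96-5p and miR-182-5p differ in their last base and those of miR-96-5p and miR-183-5p in their first. The matching 8mer sites, GTGCCATA for miR-183-5p, GTGCCAAA for miR-96-5p and TTGCCAAA for miR-182-5p, were searched on the transcript strand of the longest annotated 3′ UTR. An 8mer was present in 5 of the 37 genes (13.5%), against 9.33% of 14451 tested genes with an annotated 3′ UTR. With 7mer-m8 sites, which pair with the seed but lack the final A, 14 genes (37.8%) held a site, against 26.8%. The 3′ UTRs of the 37 genes are longer, with a median of 2375 bases against 1194, and the shares are not corrected for this. The 7 sites of that kind lie in Doc2b, Unc13a, Rab3c, Sv2c and Amph, and are shown because an 8mer is the seed match known to act most strongly, with 8 bases on each side, the match in capitals and GRCm38 coordinates of the 8 matched bases.
Doc2b, miR-182-5p, chr11:75770152-75770159, minus: tttaggatTTGCCAAAggctacag
Unc13a, miR-182-5p, chr8:71628938-71628945, minus: tgaaccggTTGCCAAAcaagtttc
Rab3c, miR-96-5p, chr13:110060077-110060084, minus: taacctctGTGCCAAAtgccaaga
Rab3c, miR-96-5p, chr13:110055217-110055224, minus: aagacttaGTGCCAAAttagaagg
Sv2c, miR-96-5p, chr13:95957565-95957572, minus: cccatattGTGCCAAAcatagtta
Sv2c, miR-182-5p, chr13:95954842-95954849, minus: atttctgaTTGCCAAAatgttggg
Amph, miR-182-5p, chr13:19150541-19150548, plus: tcatcccaTTGCCAAAacagttga

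In naive ganglia none of the 37 vesicle release genes passed the edgeR quasi-likelihood test in KO against control mice at 0.05, with p adjusted over all genes by Benjamini-Hochberg, where 1.89% of the 16976 genes did. Log2 fold changes ran from -0.30 to 0.31 with SEs of 0.0752 to 0.372, 24 genes above 0 and 13 below, and their median was 0.05 against 0.00 over all genes. At an unadjusted p under 0.05 there were 3 genes, Syp, Rims2 and Stx1a, or 8.11% of the 37, against 11.7% of all genes. DESeq2 called 1 of the 37, Syp, where it called 3.03% of all genes, and limma-voom called 0, with 4 at an unadjusted p under 0.05. In bulk tissue, fewer cells of a type and less RNA per cell cannot be told apart, here and in every comparison that follows.

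Syp, highest per kb among the vesicle membrane and clustering genes (chrX:7638471-7653256), had 513, 528, 539 and 642 CPM in the KO naive libraries, against 450.2, 503, 437, 451 and 405 CPM in the control naive libraries. All 4 KO libraries lay above all 5 control libraries, with means of 556 ± 58.8 CPM in KO naive and 449 ± 35.2 CPM in control naive (SD, n = 4 and n = 5) (log2 fold change 0.31, SE 0.0936, adjusted p = 0.131). Rims2 had 37.6, 38.4, 37 and 33.5 CPM in KO naive, against 45.9, 43.6, 44.9, 44.9 and 40.4 CPM in control naive, and every KO value lay below every control value (log2 fold change -0.26, SE 0.109, adjusted p = 0.336). Stx1a had 44, 51.3, 53.8 and 47.7 CPM in KO naive, against 37.9, 39.7, 38.9, 45.6 and 39.4 CPM in control naive, and the groups overlapped through control replicate 6 (log2 fold change 0.29, SE 0.124, adjusted p = 0.358). Rims1 and Rab3c also parted without overlap. Rims1 was at 72 ± 1.8 CPM in KO naive and 64.4 ± 2.8 CPM in control naive (adjusted p = 0.565), and Rab3c at 446 ± 22.8 CPM in KO naive and 405 ± 11.4 CPM in control naive (adjusted p = 0.516). These 4 genes without overlap are 10.8% of the 37, close to the 9.63% of all genes that parted in this way.

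None of the synapsins was called. Syn2 was at 162 ± 16.9 CPM in KO naive and 137 ± 16.4 CPM in control naive (log2 0.24, adjusted p = 0.446), Syn1 at 205 ± 45.4 CPM in KO naive and 189 ± 30.0 CPM in control naive (log2 0.11, adjusted p = 0.896), and Syn3 at 131 ± 2.39 CPM in KO naive and 148 ± 19.2 CPM in control naive (log2 -0.18, adjusted p = 0.513). Slc17a7 had the lowest log2 fold change of the 37, with 114, 98.5, 94 and 114 CPM in KO naive against 137, 148, 124, 132 and 109 CPM in control naive (log2 fold change -0.30, SE 0.169, adjusted p = 0.547). Its partner Slc17a6 was at 268 ± 12.1 CPM in KO naive and 257 ± 14.5 CPM in control naive (log2 0.06, adjusted p = 0.878).

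The genes with an 8mer lay within the range of the others. Their log2 fold changes were -0.13 for Doc2b, 0.14 for Unc13a, 0.14 for Rab3c, -0.17 for Sv2c and 0.13 for Amph, with adjusted p from 0.516 to 0.956. The median of these 5 was 0.13 and that of the other 32 genes 0.04, with a range of -0.17 to 0.14 inside the range of the others (-0.30 to 0.31). Over the 14 genes with any site the median was 0.01, and over the 23 without one it was 0.05. A seed match is a description of the letters and not of pairing in these cells.

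A fit of the 9 naive libraries alone, which takes its spread from them only, called 4 of the 37 genes, Syp (0.30, adjusted p = 0.0201) and Stx1a (0.29, adjusted p = 0.0332) higher and Rims2 (-0.26, adjusted p = 0.0292) and Slc17a7 (-0.31, adjusted p = 0.0408) lower in KO. That is 10.8% of the 37, against 6.17% of 16457 genes in that fit, and the same 4 were called with the range of animal numbers as a term. Of the C-fibre markers, Mrgprd and P2rx3 fell in KO naive, and summed C-fibre marker levels were 3738 to 4418 CPM there and 3954 to 4851 CPM in control naive. Ntrk3 fell among the A-fibre markers, whose summed levels were 6461 to 7682 CPM in KO naive and 6053 to 7444 CPM in control naive, and the part of neuron classes in the values above was not tested.

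The next comparison asked how injury changed the machinery in control mice. A single gene of the 37 passed the test, 2.70% of them against 2.48% of all genes. It was Syt4, an atypical synaptotagmin found on dense-core and other non-synaptic vesicles and known as an activity-induced gene. Syt4 had 477, 601 and 731 CPM in the control SNI libraries, against 395, 459, 396, 396 and 457 CPM in the control naive libraries. The groups did not overlap, and Syt4 rose to 603 ± 127 CPM (SD, n = 3) in control SNI, against 421 ± 34.2 CPM (n = 5) in control naive (log2 fold change 0.52, SE 0.109, adjusted p = 0.0136). The highest of the injured values came from replicate 23, and without that library the log2 fold change was 0.36 (adjusted p = 0.029). Syt4 stayed called in each of the 15 fits that left out 1 library, with adjusted p up to 0.0496, but not in a fit of the 2 control groups alone. It was not called without the wt libraries (0.23, adjusted p = 0.328), which leaves replicate 15 as the only injured control and assumes it to vary like the other groups, nor when scaled by pan-neuronal markers (0.41, adjusted p = 0.112).

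Of the other 36 genes, 9 had an unadjusted p under 0.05 without passing the adjustment. With Syt4 that makes 27% of the 37, against 15.7% of all genes. Vamp1 had 504, 416 and 387 CPM in control SNI, against 559, 582, 595, 540.2 and 504 CPM in control naive (log2 fold change -0.35, SE 0.0976, adjusted p = 0.072), and a single injured library, replicate 15, reached the lowest naive value. Doc2b had 3.02, 3.61 and 1.94 CPM in control SNI, against 1.57, 1.03, 1.21, 1.18 and 1.2 CPM in control naive (log2 fold change 1.24, SE 0.358, adjusted p = 0.0849), from 29, 35 and 9 counts against 16, 9, 13, 13 and 13, and the groups did not overlap. Pclo and Sv2b parted in the other direction, Pclo at 116 ± 21.4 CPM in control SNI and 150.1 ± 19.4 CPM in control naive (log2 -0.37, adjusted p = 0.213), and Sv2b at 283 ± 16.2 CPM in control SNI and 324 ± 12.5 CPM in control naive (log2 -0.19, adjusted p = 0.266). Genes without overlap were thus 4 of 37, 10.8%, against 8.21% of all genes. The median log2 fold change of the 37 was -0.02, against 0.02 over all genes, with 17 genes above 0 and 20 below.

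These values turned on single injured controls. Without replicate 15, the injured control that carries Wnt1-Cre, 7 genes were called, 18.9% of the 37 against 8.74% of all genes: Syt4 was higher, and Vamp1, Rims2, Cplx2, Nsf, Syt7 and Sv2a were lower. Without replicate 23, the library of low depth, 3 genes were called, 8.11% against 4.63% of all genes, all higher: Syt4, Doc2b (1.41, adjusted p = 0.0319) and Rab3c. Of the macrophage markers, 7 of 11 rose in control SNI, with summed levels of 226 to 352 CPM there and 148 to 179 CPM in control naive, and Scn1a fell among 9 A-fibre markers. Of 9 markers of myelinating Schwann cells 7 lay below 0 and 2 above, and 0 were called. Their sums were 6500 to 7150 CPM in control SNI and 7928 to 12095 CPM in control naive. Summed pan-neuronal levels were 13666 to 16527 CPM in control SNI and 12429.9 to 14585 CPM in control naive, and scaled by them the median of all genes was -0.11. The part of these cell types in the values above was not tested.

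In KO mice injury changed 6 of the 37 genes, 16.2% of them against 10.1% of all genes. By TMM scaling Doc2b, the active zone genes Bsn and Erc2 and the synapsins Syn1 and Syn3 rose, 13.5% of the 37 against 7.17% of all genes, and the vesicle SNARE Vamp1 fell, 2.70% against 2.94%. The median log2 fold change of the 37 was 0.03 and that of all genes -0.02, with 24 of the 37 above 0. Scaled by library totals, 4 of the 37 were called higher, 10.8% against 4.48% of all genes, and 3 lower, 8.11% against 4.8%, and the median was -0.02. Groups did not overlap for 15 of the 37, 40.5%, against 34.2% of all genes.

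Doc2b had 4.04, 5.58 and 5.19 CPM in the KO SNI libraries (32, 59 and 52 counts), against 0.609, 1.09, 2.28 and 0.391 CPM in the KO naive libraries (6, 11, 24 and 3 counts). Every injured value lay above every naive one (log2 fold change 2.12, SE 0.358, adjusted p = 0.00135), although the naive values themselves spread over more than 5-fold and rest on few counts. Bsn, the Bassoon scaffold (chr9:108096022-108190384), had 231, 234 and 213 CPM in KO SNI, against 152, 157, 117 and 156 CPM in KO naive. It rose to 226 ± 11.1 CPM (SD, n = 3) in KO SNI, against 145 ± 19 CPM (n = 4) in KO naive (log2 fold change 0.64, SE 0.166, adjusted p = 0.0239). Erc2, which binds Bassoon and RIM at the active zone (chr14:27622428-28478537), had 147, 151 and 123 CPM in KO SNI, against 104, 102, 97.4 and 94.3 CPM in KO naive (log2 fold change 0.50, SE 0.0932, adjusted p = 0.00323). All 3 injured values of Erc2 lay above all 4 naive values.

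Syn1 (chrX:20860511-20921004) had 283, 339 and 339 CPM in KO SNI, against 190.1, 213, 153 and 262 CPM in KO naive, with means of 320.4 ± 32.3 CPM in KO SNI and 205 ± 45.4 CPM in KO naive (log2 fold change 0.65, SE 0.188, adjusted p = 0.0401). The groups did not overlap, but the highest naive value, from replicate 9, came within 10% of the lowest injured value. Syn3 (chr10:86055125-86498896) had 168, 203 and 193 CPM in KO SNI, against 129, 129, 132 and 134 CPM in KO naive (log2 fold change 0.52, SE 0.105, adjusted p = 0.00552), and the third synapsin, Syn2, was at 166 ± 9.36 CPM in KO SNI and 162 ± 16.9 CPM in KO naive (log2 0.04, adjusted p = 0.873). Vamp1 (chr6:125215551-125245964) had 420.2, 391 and 455 CPM in KO SNI, against 618, 519, 586 and 576 CPM in KO naive. It fell to 422 ± 31.9 CPM in KO SNI, against 575 ± 41.6 CPM in KO naive (log2 fold change -0.45, SE 0.102, adjusted p = 0.0115), with no overlap. Its paralog Vamp2 was at 442 ± 16.9 CPM in KO SNI and 334 ± 59.8 CPM in KO naive (log2 0.40, adjusted p = 0.0636), also without overlap.

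Below the threshold stood 9 genes with an unadjusted p under 0.05, so that 15 of the 37, 40.5%, lay under it, against 27% of all genes. Sv2b was at 241 ± 8.5 CPM in KO SNI and 292 ± 28.3 CPM in KO naive (log2 -0.27, adjusted p = 0.0525), Slc17a7 at 160.4 ± 42 CPM in KO SNI and 105 ± 10.5 CPM in KO naive (log2 0.61, adjusted p = 0.0531), and Snap25 at 1069 ± 107 CPM in KO SNI and 1351 ± 121 CPM in KO naive (log2 -0.34, adjusted p = 0.0561). Syt4, the gene called in controls, was at 479 ± 17 CPM in KO SNI and 385 ± 19.2 CPM in KO naive (log2 0.32, adjusted p = 0.0896). The endocytosis genes were at log2 0.47 for Dnm1, 0.29 for Synj1 and -0.19 for Amph, all without overlap between the groups and with adjusted p of 0.0961, 0.127 and 0.221.

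Doc2b, Erc2 and Syn3 stayed called in all 15 fits that left out 1 library, with adjusted p up to 0.0109, 0.0324 and 0.0452, each reached without KO SNI replicate 19. Without that library 3 of the 37 genes were called, 8.11% against 3.41% of all genes. Vamp1 was lost only without it (adjusted p = 0.0820), Bsn in 4 of the 15 fits (up to 0.10) and Syn1 in 6 (up to 0.154). Syn1 was also not called when scaled by library totals or without the filter on low counts. Replicate 19 also held the most adipocyte marker signal of all libraries, a sum of 113 CPM, against 3.35 to 8.16 CPM in KO naive, and skeletal muscle markers were at 143 to 1108 CPM in KO SNI and 15 to 169 CPM in KO naive. Without control SNI replicate 23, whose spread enters the shared fit, 14 genes were called, 37.8% against 25.6% of all genes.

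Of 14 pan-neuronal markers, 8 lay above 0 and 6 below in KO injury, with a median log2 fold change of 0.12. Elavl3, Tubb3, Map1b and Thy1 rose and Isl1 fell in KO SNI. The summed level of the 14 was 17059 to 18281 CPM there, against 12760.0 to 14070.5 CPM in KO naive, a sum weighted to the most abundant markers. When libraries were scaled by that sum, the median log2 fold change of all genes was -0.40 and that of the 37 genes -0.34, and of the 6 genes only Doc2b (log2 1.73, adjusted p = 0.00362) stayed higher by the test and Vamp1 (-0.82) lower. Relative to neuronal marker RNA, Bsn, Erc2, Syn1 and Syn3 were at 0.26, 0.12, 0.28 and 0.15, with adjusted p from 0.101 to 0.396. Under that scaling 22 of the 37 genes, 59.5%, were called in either direction, against 43.8% of all genes, and 21 of them, 56.8%, were lower, against 41.3%. Among 9 A-fibre markers Ntrk3 rose and Scn1a and Etv1 fell, with summed levels of 6608 to 8246 CPM in KO SNI and 6461 to 7682 CPM in KO naive. Glul, 1 of 7 satellite glia markers, and Cdh5, 1 of 4 endothelial markers, rose, with sums of 2204 to 2740.2 and 62.2 to 76.8 CPM in KO SNI, against 2406 to 2815 and 43.3 to 57.4 CPM in KO naive. Markers of myelinating Schwann cells, of which 0 of 9 were called, summed to 5241 to 10095 CPM in KO SNI and 8714 to 10126 CPM in KO naive. Macrophage markers, of which 5 of 11 rose, were at 287 to 355 CPM in KO SNI and 172 to 261 CPM in KO naive, and the part of these cells in the values above was not tested.

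**Figure D2:**
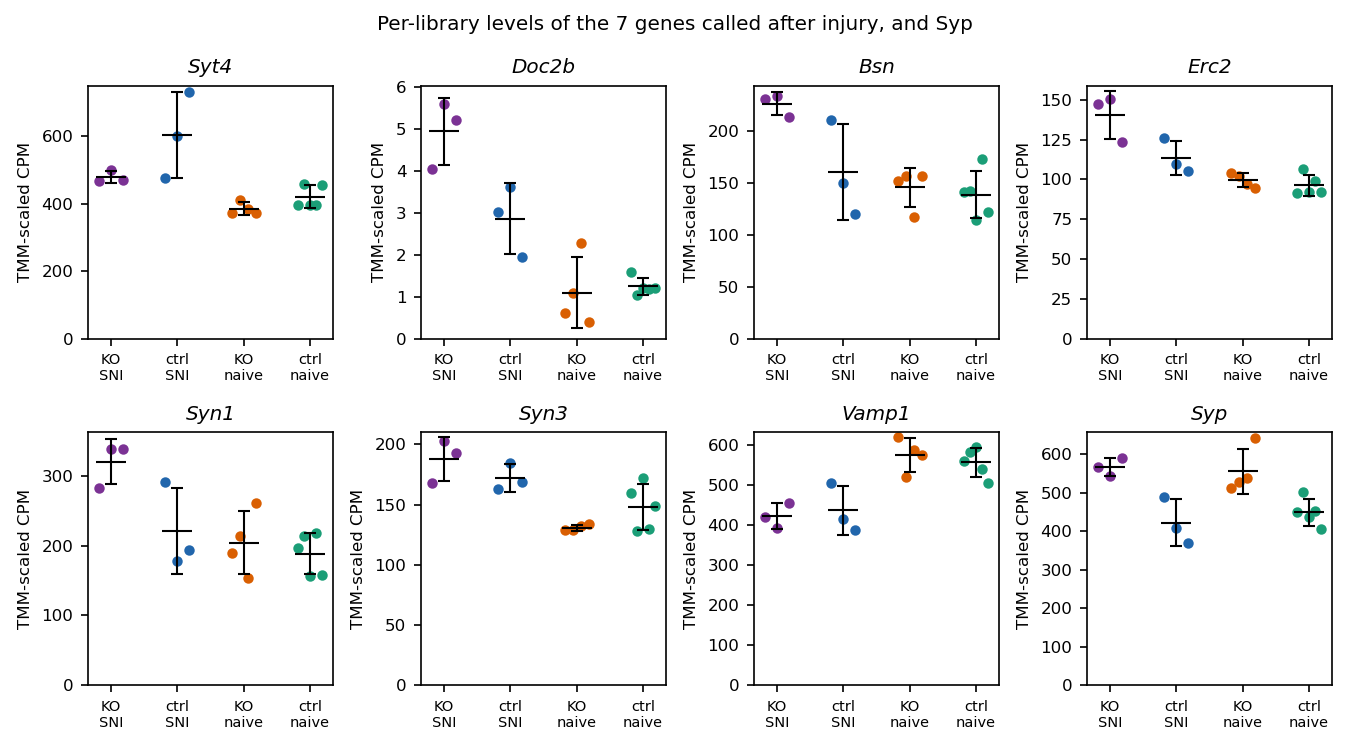
TMM-scaled CPM (axes from 0) of the 7 genes called in an injury comparison and of Syp, 1 point per library, with the mean and SD of the KO SNI, control SNI (ctrl SNI), KO naive and control naive (ctrl naive) groups. Syt4 is highest in control SNI replicate 23 at 731 CPM, Doc2b, Bsn, Erc2, Syn1 and Syn3 lie higher in KO SNI than in KO naive by TMM scaling, and Vamp1 lies lower.

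Promoter sequence was looked at for the genes called after injury, since transcription factors induced by axotomy are known to bind the cyclic AMP response element (CRE) and the AP-1 site. In the 300 bases around the start, 250 before and 50 after it, RefSeq windows were matched for 29 of the 37 genes. A gene was counted where any of its windows held the motif. The CRE, TGACGTCA on either strand, was found for 1 of the 29 genes, Syn1, and for 2.03% of 27025 genes with a window. The AP-1 site, TGAGTCA or TGACTCA, which are each other's reverse complements, was in 2 of the 29, Erc2 and Syt2, and in 5.95% of the 27025. The CRE and AP-1 matches of the called genes are shown with 10 bases on each side on the gene's strand, the motif in capitals (GRCm38.p6). The CRE and AP-1 matches did not overlap, and a match describes the letters, not binding.
Syn1, CRE, 159 to 152 bases before the start, chrX:20921060-20921087, minus: aaaggctgacTGACGTCActcactagcc
Erc2, AP-1, 51 to 45 bases before the start, chr14:27622346-27622372, plus: gctgggaatgTGAGTCAgggcctgggc

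After injury, KO was compared with control to ask whether the cluster matters for the injured state. None of the 37 genes passed the edgeR test, where 1.04% of all genes did, and 12 had an unadjusted p under 0.05, 32.4% of the 37 against 22.7% of all genes. DESeq2 called 3, Syp and Erc2 higher and Synpr lower in KO SNI, 8.11% against 5.45% of all genes, and limma-voom called 0, with 15 at an unadjusted p under 0.05. By TMM scaling 29 of the 37 lay above 0, with a median log2 fold change of 0.20 against -0.01 over all genes, whereas scaled by pan-neuronal marker counts 15 did, with medians of -0.04 and -0.27. The TMM-scaled values ran from -0.92 to 0.74 with SEs of 0.0917 to 0.356. Among the active zone genes they ran from 0.01 for Rab3c to 0.49 for Bsn.

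Syp had the smallest p, with 568, 543 and 589.8 CPM in KO SNI, against 489.5, 407 and 370.3 CPM in control SNI (log2 fold change 0.42, SE 0.115, adjusted p = 0.0846). The groups did not overlap, as in naive animals. Erc2 had 147, 151 and 123 CPM in KO SNI, against 126, 109 and 105 CPM in control SNI (log2 fold change 0.31, SE 0.10, adjusted p = 0.126), and Pclo 187, 158 and 128 CPM in KO SNI, against 128, 128 and 90.9 CPM in control SNI (log2 fold change 0.44, SE 0.157, adjusted p = 0.142). In both, the lowest KO library, replicate 21, fell among the controls. Bsn, Vamp2, Sv2b and Doc2b were the other genes without overlap, which makes 5 of 37, 13.5%, against 16.2% of all genes. Vamp2 was at 442 ± 16.9 CPM in KO SNI and 349 ± 57.4 CPM in control SNI (log2 0.34, adjusted p = 0.178), and Sv2b, on the low side, at 241 ± 8.5 CPM in KO SNI and 283 ± 16.2 CPM in control SNI (log2 -0.23, adjusted p = 0.162).

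Synaptoporin, Synpr, had the largest log2 fold change, -0.92 (SE 0.32, adjusted p = 0.143). It had 334, 212 and 241 CPM in KO SNI, against 325, 294 and 873 CPM in control SNI. The control mean of 497 ± 326 CPM rests on replicate 23, whose 873 CPM exceeded all other 14 libraries (212 to 439.8 CPM). Syt4 was also highest in that library, and was at 479 ± 17 CPM in KO SNI and 603 ± 127 CPM in control SNI (log2 -0.33, adjusted p = 0.148).

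The injured controls differed among themselves. Replicate 15, the injured control with Wnt1-Cre, lay above both wt libraries for 26 of the 37 genes, 70.3%, against 34.4% of all genes. All 3 KO SNI libraries lay above both wt libraries for 20 of the 37, 54.1%, against 20% of all genes. Replicate 23 was the lowest of the 15 libraries for 13 of the 37 genes, 35.1% against 24.7% of all genes, and the highest for 3, Syt4, Synpr and Slc17a6, 8.11% against 25%. With replicate 15 left out, 16 of the 37 genes were called in KO against control SNI, 14 of them higher, 43.2% against 20.7% of all genes, among them Syp (0.55, adjusted p = 0.00806), Bsn (0.74), Syn1 (0.79) and Dnm1 (0.65), with Syt4 (-0.47) and Synpr (-1.15) lower. Against replicate 15 alone, without the wt libraries, the median was -0.03. The median was 0.05 without replicate 23. Of the 14 pan-neuronal markers Eno2 rose, and their sums were 17059 to 18281 CPM in KO SNI and 13666 to 16527 CPM in control SNI, where replicate 15 was the highest. Scaled by these markers 4 genes, Syt4, Snap25, Sv2b and Synpr, were called, all lower, 10.8% against 17.7% of all genes. C-fibre marker sums were 3088 to 3918 CPM in KO SNI and 3181 to 4899.5 CPM in control SNI. The part of control genotype, depth and neuronal RNA in this comparison was not tested.

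**Figure D3:**
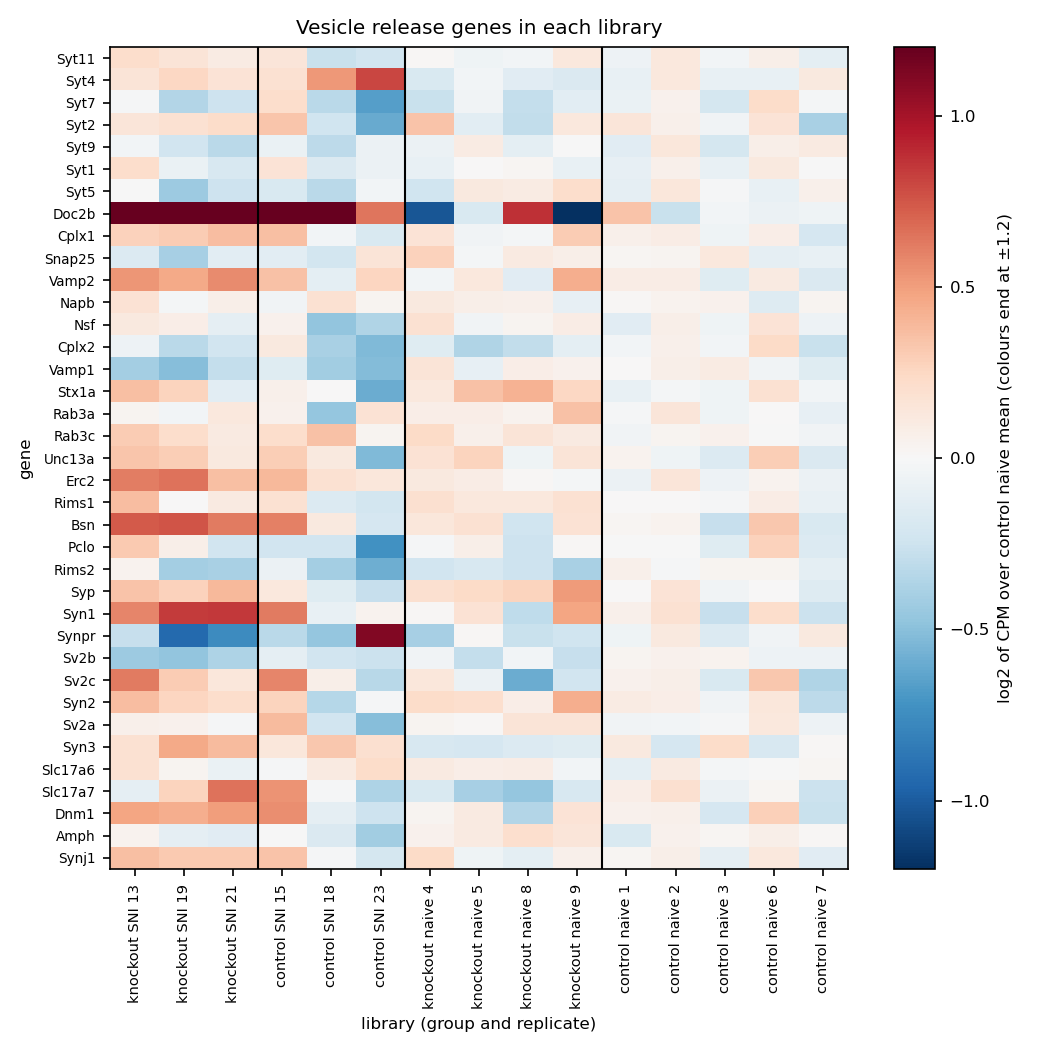
Log2 of the CPM of each vesicle release gene in each library over the control naive mean, with libraries ordered as KO (knockout) SNI, control SNI, KO naive and control naive, and colours ending at ±1.2. Control SNI replicate 15 resembles the KO SNI libraries in Bsn, Syn1, Sv2c and Dnm1, and replicate 23 is blue for many genes but red for Syt4 and Synpr. Doc2b passes the upper colour limit in all 3 KO SNI libraries and in control SNI replicates 15 and 18, and the lower limit in KO naive replicate 9.

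The difference between the injury responses of KO and control mice was tested directly as an interaction. None of the 37 genes passed, nor did any of the 16976 genes (0%) by edgeR, with 1 of the 37, Pclo, at an unadjusted p under 0.05 (2.70%) against 13.4% of all genes. DESeq2 and limma-voom also called 0 of the 37, with 2 each at an unadjusted p under 0.05, and DESeq2 called 0.0707% of all genes. Pclo was at log2 0.11 for injury in KO and -0.37 in control, a difference of 0.48 (SE 0.202, adjusted p = 0.365). Syn3 was at 0.52 in KO and 0.22 in control, a difference of 0.30 (SE 0.147, adjusted p = 0.379), and Rims2 at 0.02 in KO and -0.33 in control, a difference of 0.35 (SE 0.173, adjusted p = 0.38).

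No gene called after injury in one genotype passed the test of that difference. For Doc2b the difference was 0.88 (SE 0.516, adjusted p = 0.43), for Bsn 0.42 (SE 0.232, adjusted p = 0.407), for Erc2 0.26 (SE 0.13, adjusted p = 0.383), for Syn1 0.42 (SE 0.263, adjusted p = 0.454), for Vamp1 -0.09 (SE 0.14, adjusted p = 0.765) and for Syt4 -0.20 (SE 0.16, adjusted p = 0.552). Without control SNI replicate 15, Syt11 (0.39, adjusted p = 0.0496) and Slc17a7 (0.79, adjusted p = 0.0494) were called, 5.41% against 7.17% of all genes.

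**Figure D4:**
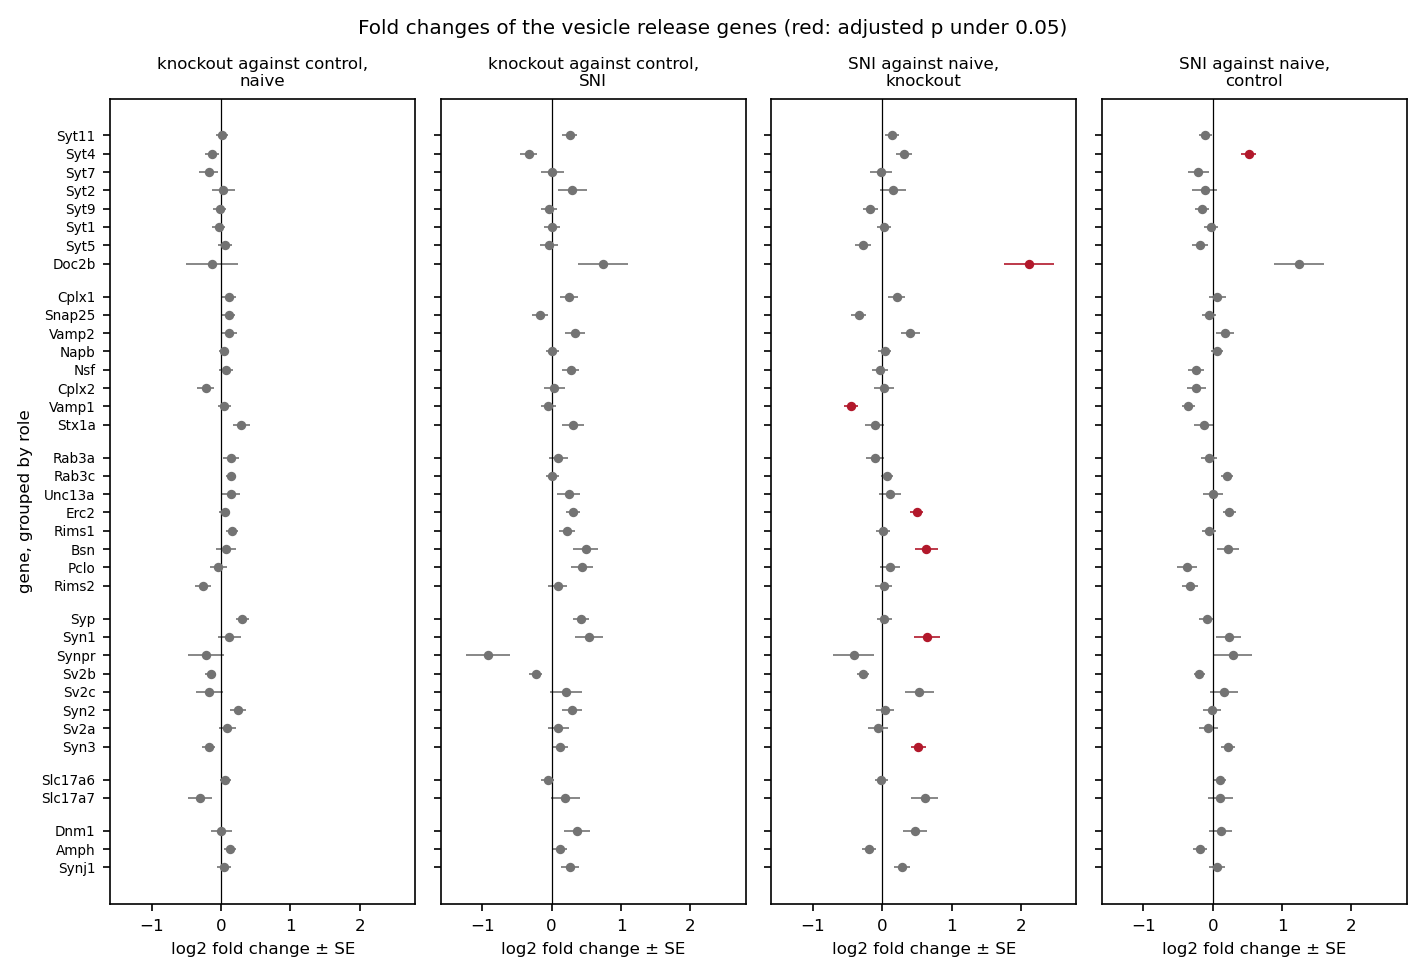
Log2 fold change ± SE of each vesicle release gene in the 4 comparisons of groups, genes grouped by role, with genes at an adjusted p under 0.05 in red. Red points appear for Syt4 in injury of control mice and for Doc2b, Vamp1, Bsn, Erc2, Syn1 and Syn3 in injury of KO mice by TMM scaling, and for none in KO against control.

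Paralogs and related proteins were set against each other within each library, as the ratio of their counts per exon length, a measure that no scaling of libraries can move. The pairs were chosen after the values were seen and are described without a test. The share of other gene pairs that part in this way was not computed. The ratio of Rims1 to Rims2 was 2.77, 2.59, 2.68 and 3.09 in KO naive, against 1.98, 2.09, 2.0, 2.16 and 2.12 in control naive, with no overlap. This follows from the single genes given above, since Rims1 parted upward and Rims2 downward, and it adds no separate evidence. After injury it was 2.61, 2.75 and 2.92 in KO SNI, against 2.48, 2.45 and 2.67 in control SNI, where the groups overlapped, and the control SNI values lay above all control naive values. The ratio of Cplx1 to Cplx2 also parted in naive animals, with 6.89, 7.0, 6.76 and 7.45 in KO naive against 5.99, 5.72, 5.49, 5.02 and 5.85 in control naive, and was 7.06, 8.62 and 8.46 in KO SNI against 6.6, 7.14 and 7.12 in control SNI, with overlap, and the control SNI values again lay above all control naive values. The ratio of Syp to Synpr was 3.03, 2.34, 2.9 and 3.4 in KO naive against 2.08, 2.07, 2.2, 2.07 and 1.67 in control naive, again without overlap. It was 3.07, 4.64 and 4.44 in KO SNI against 2.73, 2.51 and 0.769 in control SNI, also without overlap, and the lowest of these came from replicate 23.

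Other pairs differed between injured and naive libraries in both genotypes. The ratio of Vamp1 to Vamp2 was 0.353, 0.346 and 0.373 in KO SNI, against 0.769, 0.577, 0.78 and 0.517 in KO naive, and 0.48, 0.548 and 0.393 in control SNI, against 0.636, 0.665, 0.799, 0.606 and 0.689 in control naive. The ratio of Bsn to Pclo was 1.74, 2.09 and 2.35 in KO SNI, against 1.43, 1.4, 1.31 and 1.46 in KO naive, and 2.31, 1.65 and 1.86 in control SNI, against 1.33, 1.34, 1.19, 1.34 and 1.29 in control naive. In each of these 4 contrasts the injured and naive libraries did not overlap. For Vamp1 and Vamp2 in KO mice this again follows from the single genes, which parted in opposite directions. The ratio of Slc17a7 to Slc17a6 was 0.413, 0.595 and 0.842 in KO SNI, against 0.413, 0.364, 0.344 and 0.456 in KO naive, and Rab3a to Rab3c was 2.6, 2.64 and 3.18 in KO SNI, against 2.83, 3.17, 2.89 and 3.72 in KO naive, both with overlap.

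**Figure D5:**
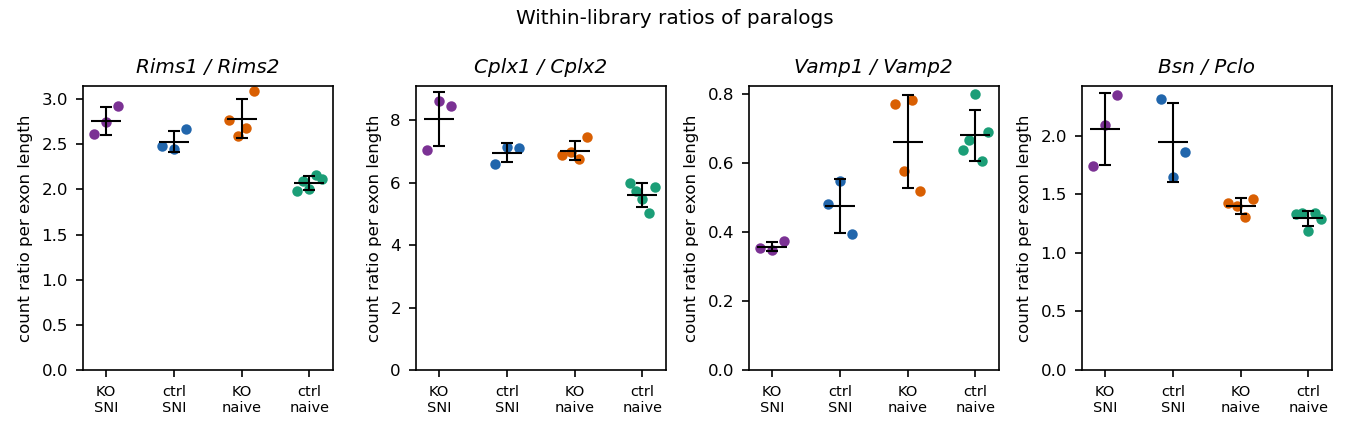
Ratios of counts per exon length between paralogs or related scaffolds within each library (axes from 0), 1 point per library, with the mean and SD of the KO SNI, control SNI (ctrl SNI), KO naive and control naive (ctrl naive) groups. Rims1 over Rims2 and Cplx1 over Cplx2 part KO naive from control naive and also control SNI from control naive, and Vamp1 over Vamp2 and Bsn over Pclo part injured from naive libraries in both genotypes.

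Beyond the 37 genes, 94 further genes of the vesicle cycle were counted, of which 89 were tested and Syt8, Vamp7, Cplx3, Cplx4 and Slc32a1 were below the filter. In KO against control naive, 1 of the 89 was called, 1.12% against 1.89% of all genes, the endophilin Sh3gl3, which curves membrane in endocytosis. It rose to 11.6 ± 1.2 CPM in KO naive, against 7.21 ± 0.755 CPM in control naive (log2 0.69, adjusted p = 0.0258). In control mice after injury 1 was called, 1.12% against 2.48% of all genes, Rims4, a short RIM protein of the active zone, which rose to 9.5 ± 1.3 CPM in control SNI, against 5.24 ± 0.521 CPM in control naive (log2 0.84, adjusted p = 0.00173).

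In KO mice after injury 14 of the 89 were called, 11 higher and 3 lower, 15.7% against the 10.1% of all genes given above. These calls are by TMM scaling. Scaled by pan-neuronal markers, the median log2 fold change of all genes was -0.40, and the wider genes are not given under that scaling. Rims4 rose here too, to 9.5 ± 1.02 CPM in KO SNI against 4.61 ± 0.274 CPM in KO naive (log2 1.04, adjusted p = 0.000207), and it was the only wider gene called in both genotypes. Of 32 further fusion genes, 4 rose, 12.5% against 7.17% of all genes, and 1 fell, 3.12% against 2.94%. Stxbp5, tomosyn, which holds back SNARE assembly, was at 114 ± 5.93 CPM in KO SNI and 77.2 ± 5.58 CPM in KO naive (log2 0.57, adjusted p = 0.000549), and Syt17 at 2.82 ± 0.189 CPM in KO SNI and 0.675 ± 0.175 CPM in KO naive (log2 2.04). The KO naive level of Syt17 rests on few counts, since 3 counts make 0.292 to 0.395 CPM in those libraries. The syntaxin Stx3 fell to 21.3 ± 1.17 CPM in KO SNI, against 30.9 ± 2.52 CPM in KO naive (log2 -0.54).

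Of 27 further endocytosis genes, 5 rose in KO SNI, 18.5% against the same 7.17%, and 1 fell, 3.7% against 2.94%. The clathrin adaptor subunit Ap2a2 was at 412 ± 18.4 CPM in KO SNI and 289 ± 21.8 CPM in KO naive (log2 0.51, adjusted p = 0.00777), the clathrin assembly gene Snap91 at 320.3 ± 5.03 CPM in KO SNI and 239 ± 15.3 CPM in KO naive (log2 0.42), and the adaptor subunit Ap2a1 at 262 ± 27.4 CPM in KO SNI and 162 ± 20.6 CPM in KO naive (log2 0.69). Sh3gl3, higher in KO than in control before injury, fell to 6.81 ± 0.934 CPM in KO SNI, against 11.6 ± 1.2 CPM in KO naive (log2 -0.78, adjusted p = 0.0119). Among the other vesicle genes the proton pump subunit Atp6v0a1 rose (log2 0.66, adjusted p = 0.0054), and of 18 active zone genes Rab27b fell (log2 -0.46, adjusted p = 0.0487). In KO against control SNI 3 of the 89 were called, 3.37% against 1.04% of all genes. Rab27b, a GTPase of secretory vesicles, was at 67.5 ± 10.7 CPM in KO SNI and 118 ± 30.4 CPM in control SNI (log2 -0.80, adjusted p = 0.0187). Before injury it was at 93 ± 4.46 CPM in KO naive and 111 ± 10.8 CPM in control naive, without overlap and not called. Slc17a8 (VGLUT3), the vesicular glutamate transporter of touch-sensitive C-fibres, was at 5.46 ± 0.419 CPM in KO SNI and 12.6 ± 2.76 CPM in control SNI (log2 -1.21, adjusted p = 0.040). It was lower in KO before injury too, without being called, at 6.46 ± 2.08 CPM in KO naive and 10.8 ± 2.69 CPM in control naive. Ap2a2 was at 412 ± 18.4 CPM in KO SNI and 287 ± 52.7 CPM in control SNI (log2 0.52, adjusted p = 0.0463).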

How the data were processed

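The deposited table holds whole-number read counts per gene for 15 libraries, made from total RNA with a stranded mRNA kit, per the labels. Per the submitters' processing notes, the build was GRCm38 and the tools included HTSeq 0.6.1 for which no settings are listed, TopHat2 2.0.4, Cufflinks, SAMtools and DESeq2. Which annotation was counted, with what strand rule and how multiply matching reads were handled is not given in the sources used here, so reads shared by paralogs or antisense genes may be misassigned. No column was left out. Symbols, exon lengths and 3′ UTRs came from GENCODE M21 (GRCm38), which named 37693 of 39179 identifiers, and the rest hold 0.523% of the counts. MicroRNA and promoter sequences came from RefSeq.

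The counts were fitted with edgeR 4.0.16 (R 4.3.3): filterByExpr by group with a minimum count of 10, TMM factors, 1 model with 4 group means over 15 libraries and 11 residual degrees of freedom, and robust quasi-likelihood F tests, two-sided. Each of 5 contrasts was adjusted by Benjamini-Hochberg over 16976 genes, and a gene was called at an adjusted p under 0.05. The fit was tested on simulated data with 2-fold changes. It recovered 72.4% to 80.7% of the changed genes in the comparisons of groups, with 2% to 5.36% of calls false. For the interaction it recovered 56.1%, with 7.56% of calls false. Smaller changes were not simulated. These rates of recovery and of false calls describe the simulated data. Whether they hold where libraries of a group differ among themselves as the injured controls did was not tested. Each library is 1 animal by its label, so p-values measure the spread between animals. The 37 genes, the other lists and the named genes (all called, the 3 smallest p of each contrast, the extremes of each role, up to 4 called genes of each wider list) were chosen with earlier results of these data known. Other genes named were picked after their values were seen.

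Alternatives were RLE factors, library totals, scaling by 14 pan-neuronal markers, DESeq2 1.42.0, limma-voom 3.58.1, no filter, fits of 2 groups, controls without wt libraries, the animal number range as a term or split, and leaving out each library.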

Additional observations from a re-analysis of the deposited data

Results flagged for a closer look

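Within the naive groups, 74 sets of library values of the 37 genes were checked for a library far from the rest of its group, and 6 were found, where chance alone gives about 1 in 20, or 3.7. In KO naive, Bsn was lowest in replicate 8 at 117 CPM, with the others at 152 to 157, and Bsn lost its call in KO injury without that library. In KO naive, Rab3a was highest in replicate 9 at 299.8 CPM, with the others at 241 to 249. Control naive replicate 6 gave 3 of the values, the highest of Stx1a at 45.6 CPM (others 37.9 to 39.7), the highest of Sv2a at 72.8 CPM (others 64 to 66) and the lowest of Napb at 485 CPM (others 545 to 561). Control naive replicate 1 gave the lowest Amph at 171 CPM (others 195 to 203). The injured groups, with 3 animals each, were too small for this check, so the Synpr and Syt4 values of control SNI replicate 23 were not covered by it.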

How the results depend on the processing

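No paired analysis was possible because replicate numbers are not shared between groups. The number of the 37 genes called was recomputed under each alternative, and the share of all genes called there follows in parentheses. In KO against control naive it was 1 by DESeq2 (3.03%), 4 in the fit of 2 groups (6.17%) and 4 with the animal number range as a term (5.83%), against 0 (1.89%). For injury in control mice it was 4 when scaled by pan-neuronal markers (2.6%), namely Vamp1, Nsf, Rims2 and Pclo, all lower, 3 by DESeq2 (3.96%) and 0 without the wt libraries (1.47%), which leaves 1 injured control assumed to vary like the other groups, against 1 (2.48%), and in the fit of 2 groups the call was Doc2b and not Syt4. For injury in KO mice it was 22 when scaled by pan-neuronal markers (43.8%), 10 by DESeq2 (13.3%), 13 in the fit of 2 groups (26.9%) and 14 without the wt libraries (27%), against 6 (10.1%). In KO against control SNI it was 4 when scaled by pan-neuronal markers (17.7%) and 3 by DESeq2 (5.45%), against 0 (1.04%). RLE factors, library totals, no filter and limma-voom kept every count within 1.5 times, but Syn1 lost its call in KO injury under library totals and without the filter. Leaving out 1 library gave 0 to 1 in KO against control naive, 1 to 7 for injury in control, 3 to 14 for injury in KO, 0 to 16 in KO against control SNI and 0 to 2 for the interaction. Of 420 values of named genes under an alternative, 380 kept their side of the threshold, 20 lost it and 20 gained it, and none of those called changed direction. Medians of the 37 moved in 11 of 117 cases, under pan-neuronal scaling or without control SNI libraries (among them the wt ones). The cause of these changes was not tested. Depth limits Doc2b most, at 3 to 59 counts per library.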
